A study of Rattus norvegicus with 2 samples.

Results

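The genes described here make, bind, sense and break down retinoic acid in rat myometrial progenitor cells, cultured precursors of uterine smooth muscle. They are the 9 rows of the deposited comparison table whose symbol is Aldh1a1, Aldh1a2, Aldh1a3, Crabp1, Crabp2, Rara, Rarb, Rarg or Cyp26b1, out of 17327 rows in all. The study compared cells from animals exposed to DES with cells from animals given VEH. In studies of this kind these abbreviations commonly stand for diethylstilbestrol, a synthetic estrogen, and for its vehicle. Each group had 1 RNA sequencing library (n = 1), which pooled the cells of 5 animals, grown for 1 to 3 passages; the sources used here do not state strain, dose, route or age at exposure.

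The deposited table gives 1 mean and 1 fold change per gene, and it leaves unsaid which group is divided by which. The reads of each library were recovered from it. The library whose reads raise the fold change is called N here (the numerator) and the other D (the denominator). Either could be the DES library, so directions are between N and D and are not tied to DES. With 1 library per group no difference has a replicate check, and each interval printed is a 95% interval that covers counting error only. A gene is called higher or lower when its normalised reads differed at least 2-fold between libraries, the mean of both libraries was at least 20 normalised reads and the counting interval of the ratio excluded 1.

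Retinoic acid is made from retinol in a pair of steps, of which retinaldehyde dehydrogenases of the Aldh1a family carry out the second and irreversible one. In the cytoplasm it is held by the cellular retinoic acid binding proteins, in the nucleus it activates the retinoic acid receptors bound to DNA with a retinoid X receptor, and enzymes of the Cyp26 family hydroxylate it for disposal. In the mouse, retinoic acid signalling in the Müllerian duct is known to direct the mesenchyme that becomes uterine stroma.

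Within this set, the detected genes that make and bind retinoic acid were many-fold higher in library N. The receptors that sense it lay within 2-fold. Of the 9 genes, Aldh1a1 was listed at 0 and 8 passed the minimum. Of these 8, the pair of detected dehydrogenase genes and both binding protein genes were higher and 0 were lower. Over all 11212 genes above the minimum, 13.9% were higher and 12.8% lower by the same rule. The median log2 ratio, with a pseudocount of 1 normalised read, was 1.51 over the 8 genes and 0.01 over all 11212. Aldh1a2, Aldh1a3 and Crabp1 reached the minimum only through library N, so this count and median are a description and not evidence of a shared difference.

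**Figure D1:**
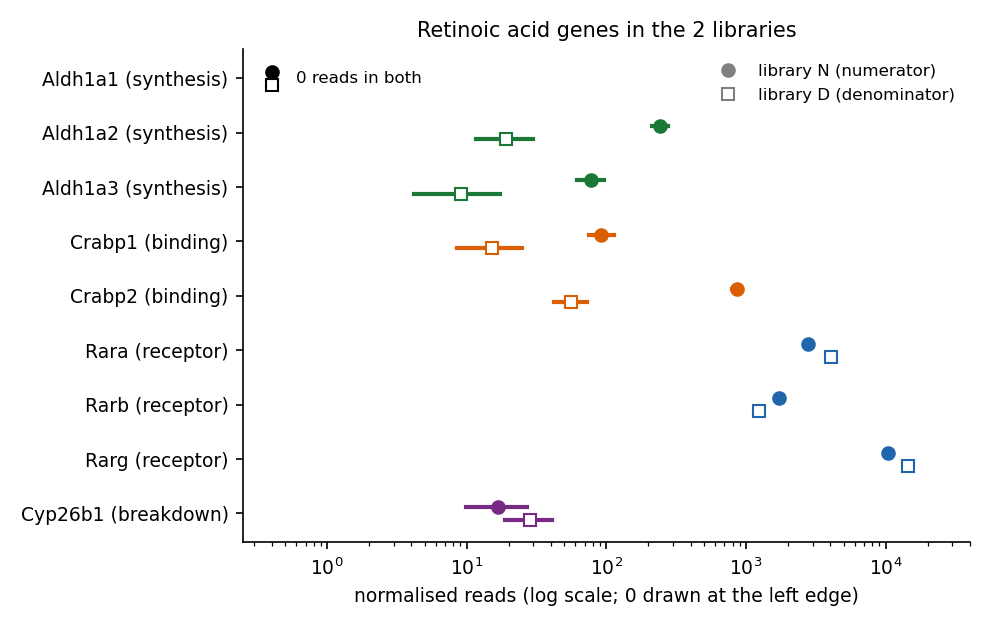
Normalised reads (log axis) of the 9 genes in library N (filled circles) and library D (open squares), with exact 95% Poisson intervals that cover counting error only; colours mark the role. Aldh1a2, Aldh1a3, Crabp1 and Crabp2 sit far to the right in library N, each of the 3 receptors differs by less than 2-fold between the libraries, and Aldh1a1 has 0 reads in both.

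Among the synthetic enzymes, Aldh1a2, the main retinoic acid-forming enzyme of the mouse embryo, was read 245 times in library N and 19 times in library D. After division by the size factors these were 243 and 19.2 normalised reads, 12.7-fold higher in library N with an interval of 7.94 to 21.4. Aldh1a3, a second enzyme of the same kind, had 78 and 9 reads and was 8.51-fold higher (interval 4.26 to 19.3). Both genes thus lay in the same direction, and even the higher library gave them only 2.30 and 0.732 CPM (reads per 1000000 reads in listed genes).

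The change of Aldh1a2 relative to Aldh1a3 could not be told from counting error. There were 3.14 reads of Aldh1a2 for each of Aldh1a3 in library N and 2.11 in library D, which is 1.49 times as many, with a Woolf interval of 0.647 to 3.42. Aldh1a1, the third enzyme of this family, was listed at 0, as was its close relative Aldh1a7. A count of 0 allows up to 0.0281 CPM in library N and 0.0286 CPM in library D (3 reads each). The sources used here do not state whether reads that fit both relatives were counted.

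Of the binding proteins, Crabp2, which carries retinoic acid to the receptors in the nucleus, showed the greatest ratio of the 9 genes. Its reads numbered 862 in library N and 55 in library D, 15.4-fold higher with an interval of 11.7 to 20.6. Crabp1, which holds retinoic acid in the cytoplasm, had 93 and 15 reads and was 6.09-fold higher (interval 3.51 to 11.3). The pair did not keep their proportion: there were 9.27 reads of Crabp2 for each of Crabp1 in library N and 3.67 in library D, a 2.53-fold difference in proportion, with a Woolf interval of 1.37 to 4.65.

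Large ratios are common between these libraries at low levels. Among the 1609 genes whose mean was within 2-fold of that of Crabp2, 9.01% had a log2 ratio at least as far from 0 as its 3.92. The same share was 19.4% for Aldh1a2 among 932 genes, 30.3% for Aldh1a3 among 799 and 34.1% for Crabp1 among 783. For the abundant receptors it was 37.0% for Rara, 44.6% for Rarg and 47.9% for Rarb. Of the 9 genes Crabp2 therefore stood farthest out for its level, while the share for Crabp1 lay close to that for Rara. In the authors' deposited table, made with DESeq2, the shrunken log2 fold change of Crabp2 was 2.47. The authors' adjusted p-values set no gene apart, Crabp2 included.

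**Figure D2:**
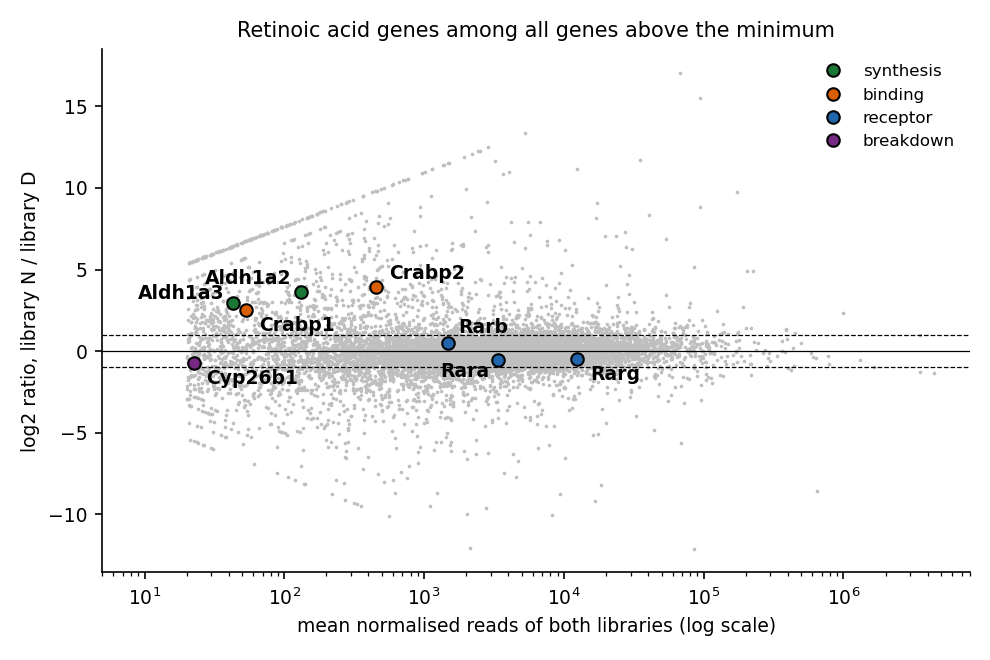
Log2 ratio of library N over library D (pseudocount of 1) against mean normalised reads (log axis) for the 11212 genes above the minimum in grey, with the 8 detected retinoic acid genes in colour by role and dashed lines at 2-fold. Crabp2 (3.92), Aldh1a2 (3.60), Aldh1a3 (2.96) and Crabp1 (2.53) lie above the upper line, and the receptors and Cyp26b1 lie between the lines.

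These 4 higher genes are on chromosomes 1, 2 and 8. Because they differed in the same direction, the 250 bases before the start of each are printed from RefSeq's GRCr8 build, which is newer than the builds named by the submitters. Capitals mark GC boxes (GGGCGG on either strand) and the TATAAA box. Also searched, on both strands, was the receptor half-site AGGTCA, allowing G as the first letter, T as the third letter, or both.
Aldh1a2, chr8:80758391-80758640, plus strand: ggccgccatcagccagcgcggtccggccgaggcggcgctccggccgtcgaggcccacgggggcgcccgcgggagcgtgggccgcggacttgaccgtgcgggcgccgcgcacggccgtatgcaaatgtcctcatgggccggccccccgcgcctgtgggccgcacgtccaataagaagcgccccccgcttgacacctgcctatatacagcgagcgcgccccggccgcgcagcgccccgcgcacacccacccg
Aldh1a3, chr1:129427644-129427893, minus strand: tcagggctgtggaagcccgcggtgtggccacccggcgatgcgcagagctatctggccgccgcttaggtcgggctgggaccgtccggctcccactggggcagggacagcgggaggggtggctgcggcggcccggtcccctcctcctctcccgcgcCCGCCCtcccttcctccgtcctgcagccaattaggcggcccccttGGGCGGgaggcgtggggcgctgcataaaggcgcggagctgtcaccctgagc
Crabp1, chr8:64047181-64047430, plus strand: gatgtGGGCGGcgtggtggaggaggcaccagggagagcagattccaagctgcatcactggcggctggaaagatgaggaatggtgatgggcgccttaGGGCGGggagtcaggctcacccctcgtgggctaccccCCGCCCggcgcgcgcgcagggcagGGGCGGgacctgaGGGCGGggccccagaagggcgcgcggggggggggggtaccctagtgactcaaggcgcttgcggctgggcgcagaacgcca
Crabp2, chr2:175714612-175714861, plus strand: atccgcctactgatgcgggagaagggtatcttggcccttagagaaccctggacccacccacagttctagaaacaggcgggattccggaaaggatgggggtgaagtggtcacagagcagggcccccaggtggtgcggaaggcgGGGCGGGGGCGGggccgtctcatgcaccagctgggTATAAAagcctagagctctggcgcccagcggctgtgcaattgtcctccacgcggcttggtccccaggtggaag

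All 4 stretches are rich in G and C, from 63.2% in Crabp2 to 77.2% in Aldh1a2. This is not particular to them: Rara (72.4%), Rarb (65.6%) and 1 of the 2 starts of Rarg (74.8%) lay in that range. Aldh1a1 (46.4%), Cyp26b1 (50.4%) and the other start of Rarg (52.4%) lay below it. Crabp1 holds 5 GC boxes, Crabp2 holds 2 and Aldh1a3 holds 2, while Aldh1a2 holds 0. Rara also holds 2, and the start of Rarg rich in G and C holds 3. These counts depend on the window: outside it, a GC box starts 4 bases after the start of Aldh1a2. Another starts 11 bases after that of Aldh1a3. Of 33469 promoter stretches of this length 30.5% hold at least 1. Crabp2 alone of the 4 holds the TATAAA box, which 12.9% of all stretches hold. None of the 4 stretches holds a half-site, which 39.1% of all stretches do. These are matches of letters in a short window, not binding sites.

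The 3 receptors were far more abundant in reads and differed by less than 2-fold. Reads of Rarg numbered 10522 in library N and 14375 in library D, 1.39-fold lower with an interval of 1.36 to 1.43. Rara had 2783 and 3993 reads and was 1.46-fold lower (interval 1.39 to 1.53). Rarb, the receptor gene that retinoic acid itself is known to induce, went the other way, with 1751 and 1232 reads (1.40-fold higher; on the log2 scale 0.48, interval 0.38 to 0.59). Counting error was small here, but all 3 lay inside the 2-fold limit.

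Rarb made up a larger share of the receptor reads in library N than in library D. It held 11.6% of the reads of the 3 receptors in library N and 6.29% in library D, while Rarg held 69.9% and 73.3% and Rara 18.5% and 20.4%. Reads of Rarb relative to Rarg were 1.94 times as frequent in library N (Woolf interval 1.80 to 2.10), and relative to Rara 2.04 times (interval 1.87 to 2.23). Rara relative to Rarg differed by a factor of 0.952, with an interval of 0.902 to 1.01 that includes 1. These ratios between genes do not depend on how the libraries were scaled. They do include any difference shared with chromosomal neighbours, whose part was not tested. The median log2 ratio of the neighbours was 0.23 at Rarb, -0.55 at Rarg and -0.11 at Rara. Read shares also carry transcript length, so they are not shares of transcript molecules.

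Rarb is shown with its response element because it is the 1 gene of the 9 whose promoter window holds a full direct repeat. The repeat, called DR5, is a pair of half-sites in the same orientation with 5 bases between them, and is a classical binding site of the retinoic acid receptors. It starts 25 bases after RefSeq's start of Rarb. Capitals mark the half-sites, which the half-site search also counts.
Rarb, chr15:11336410-11336439 (GRCr8), plus strand: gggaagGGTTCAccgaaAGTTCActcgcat

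A DR5 in any of these forms was found in 0.382% of 33469 windows that run from 250 bases before to 50 bases after a start. Single half-sites were found in the windows of Rara, Aldh1a1 and 1 of the 2 starts of Rarg, and 44.4% of all windows hold at least 1. No DR1 or DR2, the repeats with a spacer of 1 or 2 bases, was found in a window of the 9 genes.

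Cyp26b1, which hydroxylates retinoic acid, was barely detected. Library N held 17 of its reads and library D 28, 1.68-fold lower, with an interval of 0.886 to 3.27 that includes 1. No difference was detectable at this depth. Its mean of 22.6 normalised reads was just above the minimum, and 80.2% of the 505 genes at a similar level were as far from 0.

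The 4 higher genes lay above the medians of their chromosomal neighbours. They were picked for high ratios and the neighbours were not matched for level, so this is a description only. The median log2 ratio of the 20 nearest genes above the minimum was 0.17 at Aldh1a2, 0.10 at Aldh1a3, 0.41 at Crabp1 and -0.09 at Crabp2. Of these 20 neighbours, 1 was as high as Aldh1a2, 2 as high as Aldh1a3, 3 as high as Crabp1 and 0 as high as Crabp2. Rarg was different: its log2 ratio of -0.48 lay beside a median of -0.55 for its neighbours and of -0.58 for the 730 other genes of chromosome 7. Cyp26b1 (-0.71) lay on chromosome 4, where the median was -0.38. Relative to its neighbours Rarg was therefore at 0.08, not lower. On the same scale Rarb was at 0.25 and Rara at -0.43.

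**Figure D3:**
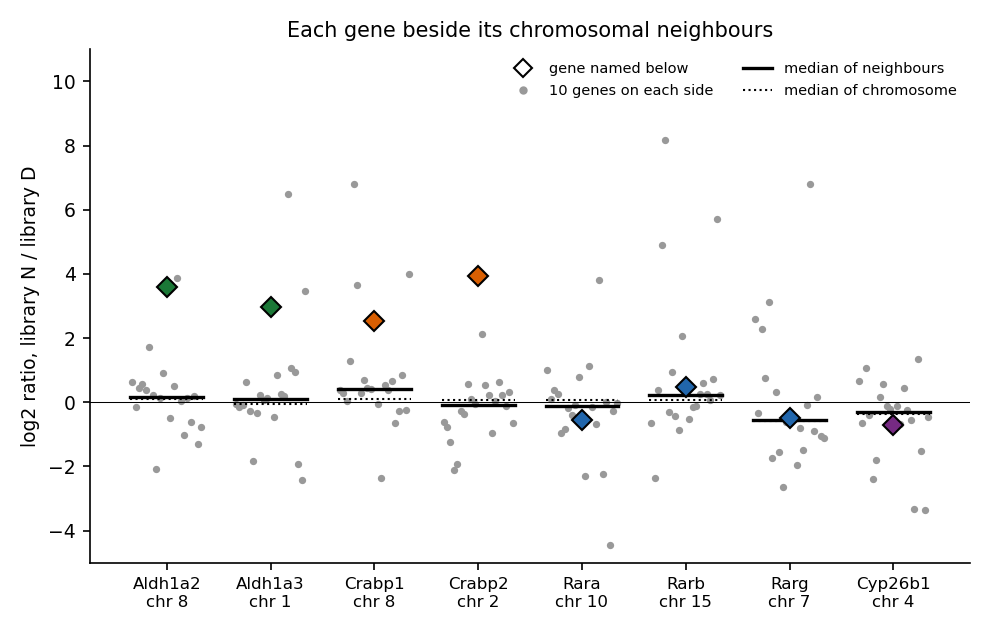
Log2 ratio of each of the 8 detected genes (diamonds), of the 10 genes above the minimum on each side in RefSeq's order (grey points), the median of these neighbours (solid line) and of the chromosome (dotted line). Crabp2 at 3.92 lies above all 20 neighbours, and Rarg at -0.48 lies near the median of its neighbours at -0.55.

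The other genes of the retinoid pathway moved both ways. Of 59 described here, 50 had a row, 3 of them listed at 0 and 7 under the minimum, and 40 passed the minimum. Of these 40, 8 were higher and 9 lower in library N, with a median log2 ratio of -0.07 beside 0.01 for all genes, of which 13.9% were higher and 12.8% lower. Rbp2, Bco1, Adh1 and Adh7 reached the minimum only through library N and Hoxb5 only through library D, so the counts are a description. The 9 without a row were not analysed here.

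Retinol handling differed most in genes of few reads. Of 4 uptake, transport and storage genes above the minimum, 2 were higher and 1 lower, beside 13.9% and 12.8% of all genes. Rbp2, the intestinal retinol binding protein, had 72 and 2 reads in libraries N and D (35.4-fold higher, interval 9.44 to 298). Bco1, which cleaves beta-carotene, had 56 and 0 reads, which makes it 18.3-fold higher with 0 taken as 3 reads in that library. Its lower counting limit on the log2 scale, which also carries the error of the 56 reads, was 3.85. Retsat, which saturates retinol, had 6023 and 12774 reads (2.16-fold lower, interval 2.09 to 2.23).

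Among 11 oxidoreductases above the minimum, 4 were higher and 2 lower, beside 13.9% and 12.8% of all genes. The alcohol dehydrogenase genes Adh7 and Adh1, whose enzymes oxidise retinol to retinal, had 646 and 100 reads in library N. In library D they had 1 and 0 reads, so that Adh7 was 634-fold higher (interval 113 to 25097) and Adh1 32.7-fold higher with 0 taken as 3 reads. The lower counting limit of Adh1 was 4.71 on the log2 scale. Dhrs4, a retinal reductase, was 2.26-fold higher (interval 2.10 to 2.44) and Aldh8a1, an aldehyde dehydrogenase that can use retinal, 2.22-fold higher (interval 1.82 to 2.72).

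The 2 lower genes were Dhrs3 and Rdh16. Dhrs3, which reduces retinal back to retinol and is known to be induced by retinoic acid, had 7672 and 38352 reads (5.09-fold lower in library N, interval 4.97 to 5.22). Among the 1300 genes at a similar level, 3.69% were as far from 0. Rdh16, a retinol dehydrogenase, had 129 and 402 reads (3.17-fold lower, interval 2.60 to 3.90). Whether reads that fit several of its close relatives were counted is not stated, so its value is uncertain. Rdh10, the enzyme that feeds Aldh1a2 with retinal in the mouse embryo, had 257 and 263 reads, a fold of 1.04 with an interval of 0.874 to 1.24 that includes 1.

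The partners of the receptors lay within 2-fold. Rxra had 931 and 1317 reads (1.44-fold lower), Rxrb 2512 and 3118 (1.26-fold lower), and Rxrg had 1 and 0 reads, under the floor in both libraries. Of 9 corepressors and coactivators above the minimum 1 was higher: Nrip1, a corepressor that binds ligand-bound receptors, had 12409 and 4037 reads (3.02-fold higher, interval 2.91 to 3.13). The other 8 lay within 2-fold. Of all genes, 13.9% were higher. Fabp5 and Ppard, an alternative carrier and receptor, also lay within 2-fold. Fabp5 had 15529 and 22080 reads (1.45-fold lower in library N) and Ppard 2013 and 2192 (1.11-fold lower). The hydroxylase gene Cyp26a1 was listed at 0.

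Genes known to be induced by retinoic acid in other cells and embryos were found on both sides, more of them lower in library N. Of 12 listed genes above the minimum, 1 was higher and 6 lower, beside 13.9% and 12.8% of all genes. The median log2 ratio of the 12 was -0.97. Rarb (1.40-fold higher) and Dhrs3 (5.09-fold lower), also named above as induced by retinoic acid, are not among the 12. The tally therefore depends on the list. Tgm2, encoding tissue transglutaminase, had 56068 and 10414 reads (5.29-fold higher, interval 5.18 to 5.40). On the lower side, Nr2f1 was 4.56-fold and Nr2f2 3.77-fold lower (the COUP-TF orphan receptors), Rarres1 3.96-fold and Rarres2, the chemerin gene, 3.39-fold. The Hox genes Hoxb4 and Hoxb5 were 4.06-fold and 5.43-fold lower, the latter on 9 and 48 reads.

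**Figure D4:**
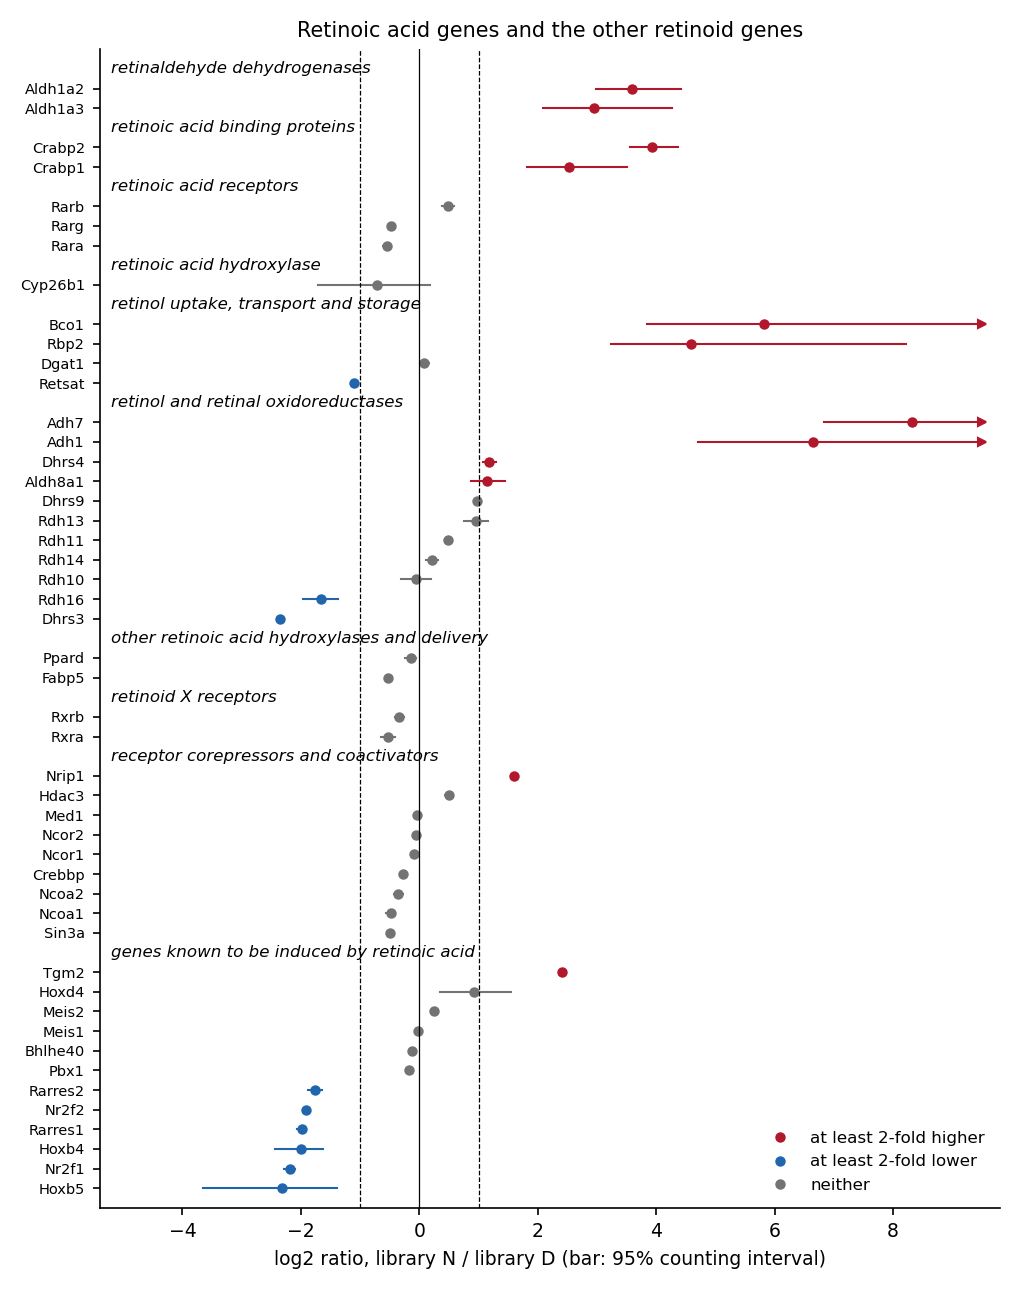
Log2 ratio of library N over library D (pseudocount of 1) with 95% counting intervals for the 8 detected retinoic acid genes and the 40 other retinoid genes above the minimum, by role; arrows mark intervals that run past the axis and dashed lines mark 2-fold. Red genes are at least 2-fold higher and blue genes at least 2-fold lower: 4 and 0 of the first 8, and 8 and 9 of the other 40.

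The libraries held 106599579 and 104793348 reads in the 13221 genes above 0. Of all genes above the minimum, 13.9% were higher and 12.8% lower, the shares to set beside each count of markers below. All 8 smooth muscle markers were above the minimum in both libraries, 1 higher and 0 lower, and their summed level was 1430120 and 826455 normalised reads in libraries N and D. All 6 mesenchymal progenitor markers were present too (2 higher, 2 lower; summed 659603 and 551364, mostly Itgb1). In bulk RNA, fewer cells of a type and less RNA per cell cannot be told apart.

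Markers of other cells differed between the libraries together with the retinoic acid genes, and their part in the results was not tested. Of 4 mesothelial markers with a row, 2 were higher and 1 lower, and their sum was 10482 and 7281, led by Upk1b in library N and Msln in library D. Of 6 fibroblast markers above the minimum 3 were higher and 3 lower (summed 2561660 and 6351740, mostly Col1a1). Of 4 endometrial stromal markers 0 were higher and 3 lower (18088 and 32008, mostly Wnt5a in library N). Of 3 epithelial markers 1 was higher and 1 lower (3010 and 1568, mostly Krt8), and the defining Cdh1 and Esrp1 were at 0. Of 6 pericyte markers 0 were higher and 5 lower (81380 and 395077). Some pericyte genes had far fewer reads in library N: Abcc9 had 38 and 168646 reads, Kcnj8 6 and 5457, and Notch3 219 and 19811. Others did not: Cspg4 had 31833 and 28088 reads, and Rgs5, under the minimum, had 22 and 0. Of 5 endothelial markers 1 was higher and 4 lower (667 and 8186, led by Tek and Esam), with Kdr and Emcn at 0. Of 4 macrophage markers 1 was higher and 2 lower (1654 and 2397, mostly Cd14), with Adgre1, Aif1 and Ptprc at 0.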

How the data were processed

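One table was used, the authors' deposited results of comparing 2 libraries. Per the labels' protocols, single reads of 36 bp came from DNase-treated total RNA. The submitters' processing notes name TopHat, FastQC, SAMtools, featureCounts and DESeq2, and the builds rn4 and rn5. Versions, settings and use of strand are not stated there, so antisense and overlapping genes cannot be told apart. Per the file headers, the deposited mean is a signal, read counts divided by size factors and averaged over both libraries. Beside it the deposited table holds, per its headers, the authors' log2 fold change with its standard error, a statistic that is a score, a p-value and an adjusted p-value. The headers do not say that the fold change is shrunken. That was inferred from a fit to the deposited standard errors.

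Every mean is a sum of whole reads of libraries N and D, each multiplied by a step fixed for that library; the steps gave size factors of 1.01 and 0.991. For 9307 genes (70.4%), including the 8 detected retinoic acid genes but Rarg, 1 pair of whole numbers met the mean. The other 3914 include Rarg and other genes named in the text that have many reads, such as Tgm2 with 12 possible pairs and Dhrs3 with 9. For most of these, the pair was taken that in a shrunken negative binomial fit met the deposited standard error, and where the fold change was close to 0 the pair nearest to it. Of the 4 pairs possible for Rarg, the one taken missed the standard error by 1.77e-08 and the next by 0.426. Tested on simulated data, the recovery returned both reads for 11212 of 11212 genes, whose values were made with the same fit. The rule of size called 200 of 200 genes changed by 4-fold and 12 others. The simulated reads held counting error only, so this gives no rate of false calls between real libraries. Because each group had 1 library, no test was run.

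Folds use no pseudocount. Intervals of a ratio are exact Clopper-Pearson intervals of the share of reads, and those of a ratio between genes are Woolf intervals. Without molecular identifiers, reads of 1 molecule can be counted several times. CPM were computed from the recovered reads. A planned level per coding length was not computed. Neighbours follow RefSeq's GRCr8 order for 11027 matched symbols. All 9 genes are named, and of the other retinoid genes those past the rule of size and the retinoid X receptors; Rdh10, Fabp5, Ppard and Cyp26a1 were named after their values were seen. A further 2 retinoid genes of the lists are not reported here and are left out of the list counts. The genes and lists were chosen with earlier results of these data known. Python 3.11.15, numpy 2.4.6, scipy 1.17.1, pandas 2.3.3 and matplotlib 3.10.9 were used.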

Additional observations from a re-analysis of the deposited data

How the results depend on the processing

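The 4 higher genes kept that call with no minimum, a 1.5-fold limit, a 4-fold limit, scaling by total reads and the authors' deposited fold change. The shares of all genes called higher at these settings were 15.2%, 22.6%, 7.54%, 14.0% and 10.5%, in that order. With a minimum of 100 normalised reads 2 were counted, since Crabp1 and Aldh1a3 fall under it, beside 11.5% of all genes. None of the 9 genes was lower under any of these settings, beside 5.19% (4-fold limit) to 22.8% (1.5-fold limit) of all genes. Of the other retinoid genes, 5 were higher with a minimum of 100, beside 11.5% of all genes. At a 4-fold limit 5 of the 40 were higher and 4 lower, beside 7.54% and 5.19% of all genes. The other counts of these retinoid genes moved by at most 1.5 times. Of 41 recomputed ratios of the 8 detected genes, 33 stayed inside the counting interval and 1 turned sign: Rarg relative to its neighbours (0.08). The authors' shrunken fold change was smaller for the 4 higher genes, at 2.47 for Crabp2, 1.99 for Aldh1a2, 1.33 for Aldh1a3 and 1.29 for Crabp1. The next best pair of reads put Rarg at -1.97, with a poor match to the deposited standard error. No paired analysis was possible because each group has 1 library. Depth limits Aldh1a3, Crabp1, Aldh1a2 and Cyp26b1 most, with 9 to 28 reads in library D.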
